A study of Mus musculus with 3 samples.

Results

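The upstream region of Dusp1 on mouse chromosome 17 carried peaks of the glucocorticoid receptor (GR) in macrophages of both genotypes studied. The listed height was greater in the wild-type library at each of the 3 sites listed in both. The counting interval of the ratio included equal heights at all but 1 of them. The highest peak was listed in wild type only, and a lower one in the mutant GRdim only. The locus comprised all listed GR peaks with a midpoint within chr17:26590000-26720000 (build mm9), a stretch of 130 kb around the gene. This stretch was chosen by its peak heights, which were known from an earlier look at both lists, so its heights in either genotype are a description and are not tested. It held 9 of the 1898 peaks listed in all, 5 of 1076 in the wild-type list and 4 of 822 in the GRdim list, at 6 distinct sites. No peak stood close to its borders: the nearest outside it lay 108 kb beyond the upper border (WT, 1.28 RPM) and 1286 kb beyond the lower one (WT, 1.01 RPM).

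GR is a hormone-activated transcription factor that binds DNA as a monomer, as a pair of subunits or through other factors. Dusp1 encodes MAP kinase phosphatase 1, a dual-specificity phosphatase that removes phosphate from p38 and JNK and so limits signalling through these kinases. It is a textbook glucocorticoid-induced gene, and in macrophages it restrains the production of inflammatory cytokines after endotoxin. Enhancers far upstream of its start have been described as GR targets in several cell types.

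The macrophages were grown from femoral bone marrow of GRdim mice and of GR+/+ litter-mates (WT below), 12 weeks old and bred onto BALB/c. The dim allele is a single amino acid exchange in the part of the GR DNA-binding domain through which receptor subunits contact each other, and it is present in every cell of the animal. GR was precipitated from formaldehyde-fixed chromatin with the antibody sc-1004 and the DNA was sequenced (ChIP-seq), with 1 library for each genotype; values of the 1 input library described in the labels were not analysed here. Cultures of the study received 1 µM dexamethasone (a synthetic glucocorticoid) overnight, LPS (bacterial endotoxin) at 100 ng/ml over 3 hours, or both; the labels leave unsaid which treatment applied to these ChIP libraries. A difference in height between the libraries has no replicate check, since there is no second animal or culture of either genotype.

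Peak height is given in RPM, taken as reads at the peak per 1000000 reads of the library, and is the authors' own value. Both lists stop at 1 RPM, with lowest heights of 1.01 in WT and 1.05 in GRdim. Heights rose in steps of 0.0676 RPM in WT and 0.0659 RPM in GRdim, read here as 1 read each, which implies depths of 14.8 and 15.2 times 1000000 reads. Intervals below are 95% exact Poisson intervals on those reads, or exact binomial intervals for ratios. They cover counting error only. They make no allowance for the choice of the locus by its heights, so they are no tests of it. The median height was 1.22 RPM in the WT list and 1.25 RPM in the GRdim list, and chromosome Y held 26 WT peaks and 0 GRdim peaks.

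Distances are from peak midpoints to 26645500, the approximate mm9 position of the gene start (Dusp1 lies on the minus strand, so upstream positions are higher). The gene span used is 218 bp longer than the Dusp1 entry of the RefSeq table. This difference in length does not give the error of the start, which was not measured, so distances are approximate. In the gene order of GRCm38, the noncoding genes Gm34606 and 1700049J03Rik follow Dusp1 on its upstream side, then the protein-coding Ergic1, and Neurl1b is the nearest protein-coding gene downstream. Which of these the peaks fall in was not analysed here.

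The promoter itself carried no listed peak. The edge of the nearest peak of either library stood about 0.92 kb upstream of the approximate gene start, and no peak overlapped the gene. The promoter is shown for reference and, like most of the locus, holds no listed peak. The sequence is that of RefSeq, build GRCm38.p6, minus strand, chr17:26508473-26508722, the 250 bases before the gene start. Its numbering differs from that of the mm9 peaks. Capitals mark a cAMP response element, TGACGTCA, the palindromic site of CREB and related factors.
Dusp1 promoter: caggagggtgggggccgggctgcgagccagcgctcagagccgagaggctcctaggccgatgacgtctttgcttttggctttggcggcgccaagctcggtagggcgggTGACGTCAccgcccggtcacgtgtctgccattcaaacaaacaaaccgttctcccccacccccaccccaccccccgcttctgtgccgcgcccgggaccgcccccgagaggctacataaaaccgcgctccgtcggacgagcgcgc
The element began 143 bases before the gene start. It occurred in 508 of 32851 RefSeq promoter windows of the same length (1.55%). The hexamer AGAACA, or TGTTCT on the opposite strand, which a single GR subunit recognises, was not found in this window and occurs in 16.1% of all such windows. The AP-1 sequence TGAGTCA, or TGACTCA on the opposite strand, was not found either and occurs in 4.46%. These letter matches describe the sequence and do not show what binds there.

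The site closest to the gene, 1.0 kb upstream, was listed in both libraries. Its height was 2.30 RPM in WT (34 reads, interval 1.59 to 3.21 RPM) at chr17:26646422-26646621. In GRdim it was 1.38 RPM (21 reads, 0.857 to 2.12 RPM) at chr17:26646457-26646656. The WT height was 1.67 times the GRdim height, with an interval of 0.936 to 3.01 that includes equal heights.

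The next site, 4.2 kb upstream, was also listed in both libraries and showed the widest gap among the shared sites of the locus. Its height was 3.92 RPM in WT (58 reads, 2.98 to 5.07 RPM) at chr17:26649569-26649768. GRdim reached 1.52 RPM (23 reads, 0.961 to 2.27 RPM) at chr17:26649526-26649725. These intervals do not overlap, and the ratio was 2.58 (1.57 to 4.39).

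A site 6.3 kb upstream was listed in GRdim only, at chr17:26651712-26651911, with 1.58 RPM (24 reads, 1.01 to 2.35 RPM). It was the highest of the 4 GRdim peaks of the locus, though by 1 read over the 4.2 kb site. The nearest WT peak was that of the 4.2 kb site, 2.14 kb away. In the whole GRdim list, 98 of 580 peaks without a WT counterpart were at least as high, and 7 of the 580 (1.21%), this one included, lay within 5 kb of a site listed in both libraries.

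The highest peak of the locus stood 26.8 kb upstream and was listed in WT only, at chr17:26672226-26672425. It reached 7.10 RPM (105 reads, 5.80 to 8.59 RPM), which gave it rank 2 among 1031 autosomal WT peaks. The lowest height in the GRdim list, 1.05 RPM, is 6.76 times smaller. The GRdim height at this site is not known, since filters other than height may have acted on the list. The closest GRdim peak was the one at 6.3 kb, 20.5 kb away.

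The most distant upstream site, at 63.1 kb, was listed in both libraries. It stood at 1.49 RPM in WT (22 reads, 0.931 to 2.25 RPM) at chr17:26708459-26708658 and at 1.19 RPM in GRdim (18 reads, 0.703 to 1.87 RPM) at chr17:26708394-26708593. The WT peak was above the median of its list and the GRdim peak below that of its own. The ratio was 1.25, with an interval of 0.642 to 2.48 that includes equal heights. On the other side of the gene, 40.1 kb downstream of its start, a peak at the floor of the list was present in WT only (1.01 RPM, 15 reads, 0.567 to 1.67 RPM) at chr17:26605312-26605511. That peak rests on the fewest reads of the 9.

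**Figure D1:**
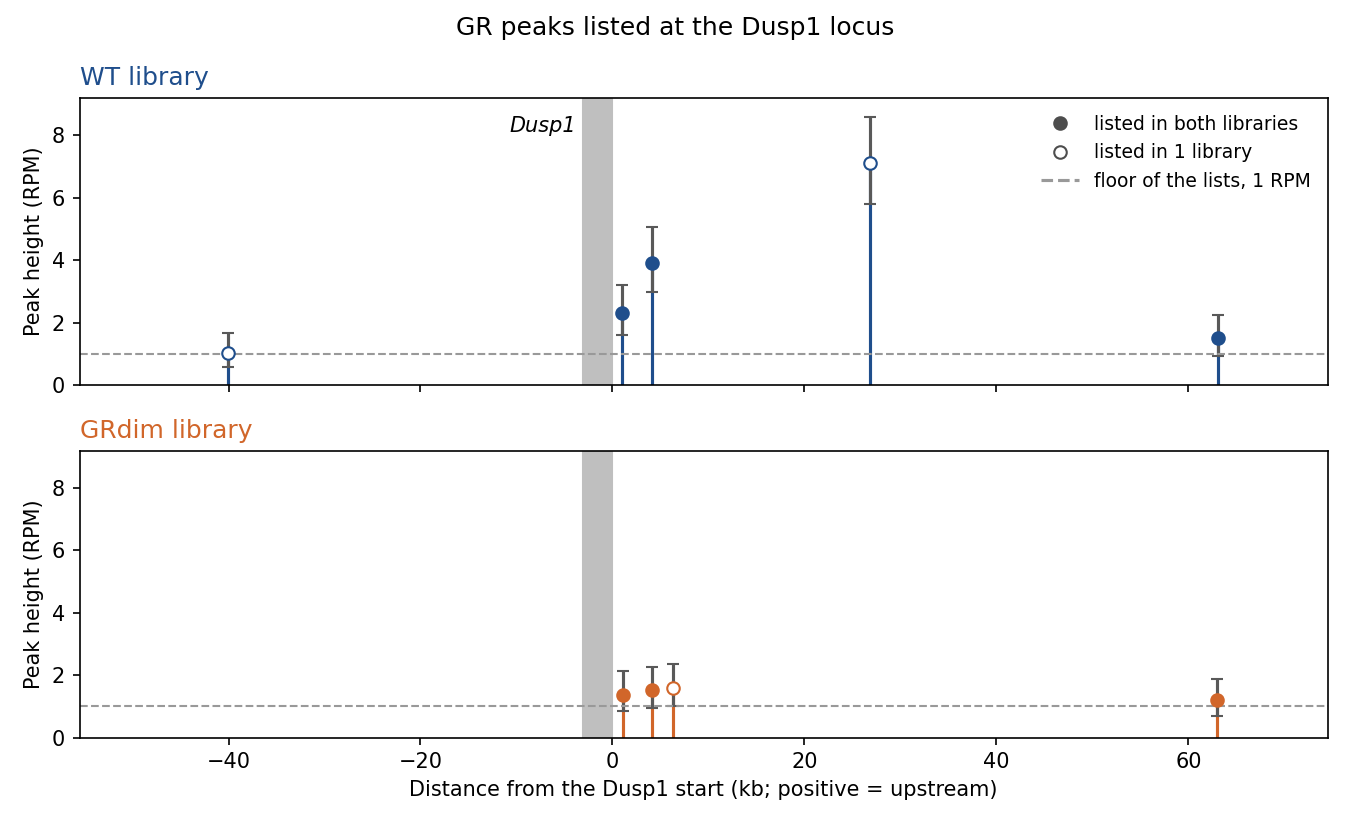
Peak height in RPM (vertical) against distance from the Dusp1 start in kb (horizontal, upstream positive) in the WT (top) and GRdim (bottom) library. Points are listed peaks with 95% exact Poisson counting intervals, filled where both libraries list the site, the grey band is the gene, and the dashed line is the floor of 1 RPM; the WT peaks reach 7.10 RPM at 26.8 kb, while all 4 GRdim peaks lie between 1.19 and 1.58 RPM.

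Within WT the listed heights at the locus were graded, and within GRdim they lay close together near the floor of the list. The highest WT peak was 7.03 times the lowest, against 1.33 times in GRdim. The GRdim peaks hold 18 to 24 reads, where their list starts at 16. The 26.8 kb site and the downstream site have no listed GRdim height, so these spreads do not cover the same sites. In WT the order ran from 26.8 kb through 4.2, 1.0 and 63.1 kb upstream to the downstream site. Each height was divided by the next lower one, so by construction no ratio could fall below equal heights and the intervals are no test. The ratio was 1.81 (1.30 to 2.54) for 26.8 over 4.2 kb and 1.70 (1.10 to 2.69) for 4.2 over 1.0 kb. It was 1.54 (0.878 to 2.77) for 1.0 over 63.1 kb and 1.48 (0.727 to 3.04) for 63.1 kb over the downstream site. The last 2 intervals include equal heights.

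In GRdim, taken in the same way, the interval of every ratio included equal heights, which does not show that the heights are equal. The ratios were 1.04 (0.564 to 1.93) for 6.3 over 4.2 kb, 1.10 (0.580 to 2.08) for 4.2 over 1.0 kb and 1.16 (0.592 to 2.32) for 1.0 over 63.1 kb. Height did not fall steadily with distance from the gene in WT, where the peak at 26.8 kb stood above both sites nearer to the start. The 26.8 kb peak alone made up 44.9% of the summed WT height of the locus, followed by 24.8% at 4.2 kb and 14.5% at 1.0 kb. In GRdim each site contributed between 21.0% and 27.9%.

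Each peak was also placed within its own list, which restates its height and is no comparison between lists of unequal length. In WT the 26.8 kb peak ranked 6 of 1076, behind 4 peaks on chromosome Y and 1 on chromosome 3. The 4.2 kb peak ranked 27, the 1.0 kb peak 90 and the 63.1 kb peak 279. In GRdim the best rank was 197 of 822, at 6.3 kb, and the others ranked 213, 294 and 474.

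**Figure D2:**
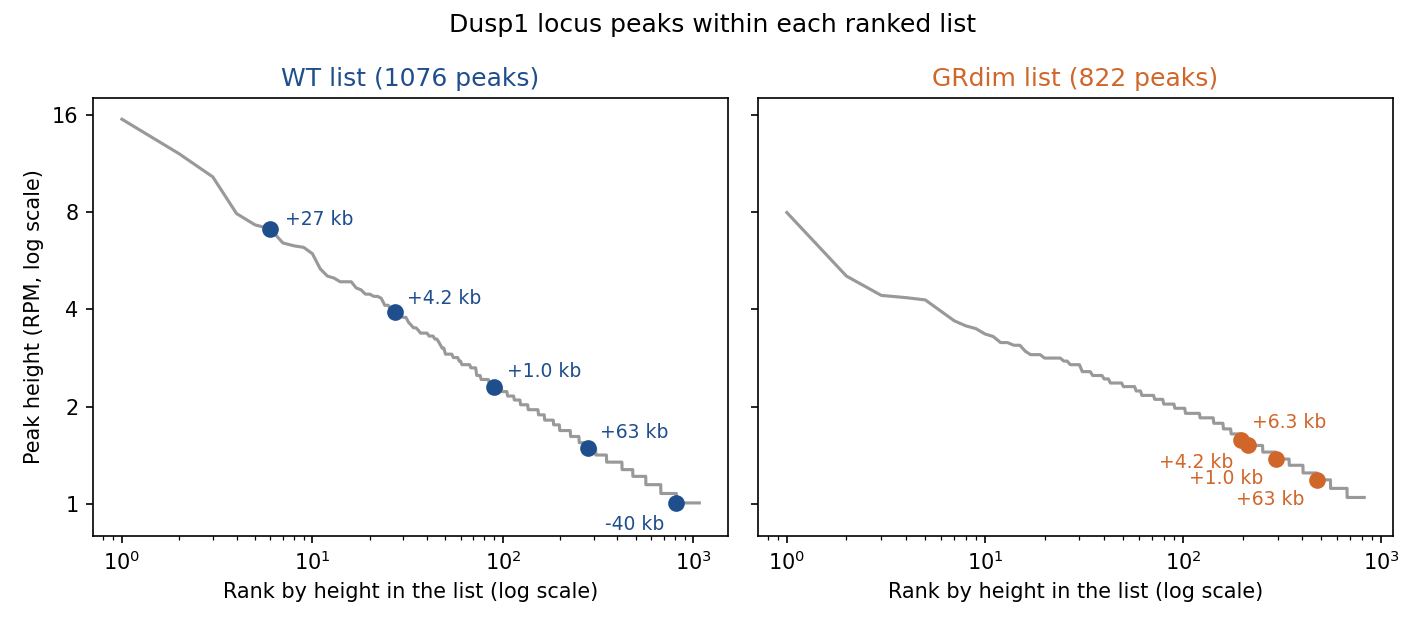
Peak height in RPM (vertical, log scale) against rank by height (horizontal, log scale) for the WT list of 1076 peaks (left) and the GRdim list of 822 (right). The grey line is the whole list and the points are the Dusp1 locus peaks, labelled by distance from the gene start; WT points spread from rank 6 to rank 816 and GRdim points from rank 197 to rank 474.

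Of the 5 WT peaks at the locus, 2 had no overlapping GRdim peak, where 77.5% of all WT peaks had none. Of the 4 GRdim peaks, 1 had no overlapping WT peak, where 70.6% of all GRdim peaks had none. At the 3 shared sites the midpoints lay 35, 43 and 65 bp apart at 1.0, 4.2 and 63.1 kb, against a median of 23.5 bp over the 242 shared sites of the series. The GRdim midpoint was farther from the gene at 1.0 kb and nearer to it at 4.2 and 63.1 kb, so the offsets had no common direction.

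WT was at least 1.5 times as high as GRdim at 2 of the 3 shared sites, where 7.44% of all 242 shared sites reached that ratio. The locus was proposed with these heights known, so this count is not evidence about it. Over all shared sites the median ratio of WT over GRdim was 0.952 (quartiles 0.790 and 1.12), and the summed heights gave 0.971 (0.937 to 1.01). A ratio at least as great as that of the 4.2 kb site occurred at 3 of the 242 sites, this one included. The floor at 1 RPM limits the ratio that a low site can show.

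Other shared sites were then set beside those of the locus, first those at least as high in WT. These were not matched in height and reached 7.91 RPM in WT, so their GRdim medians are no matched reference. The other 6 shared sites at least as high in WT as the 4.2 kb site had GRdim heights from 1.32 to 7.97 RPM, with a median of 4.35 RPM, and 2 of them were lower in GRdim than the 4.2 kb site. The 38 others at least as high in WT as the 1.0 kb site had a GRdim median of 2.34 RPM, and 4 of them were lower in GRdim than the 1.0 kb site. For the 63.1 kb site there were 111 such others, with a GRdim median of 1.85 RPM, and 10 of them were lower in GRdim than it. In the other direction, 91 shared sites elsewhere had a GRdim height within the range of the shared locus sites, 1.19 to 1.52 RPM. Their WT heights had a median of 1.35 RPM and ran from 1.01 to 5.95 RPM, and 2 of the 91 reached the 3.92 RPM of the 4.2 kb site.

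**Figure D3:**
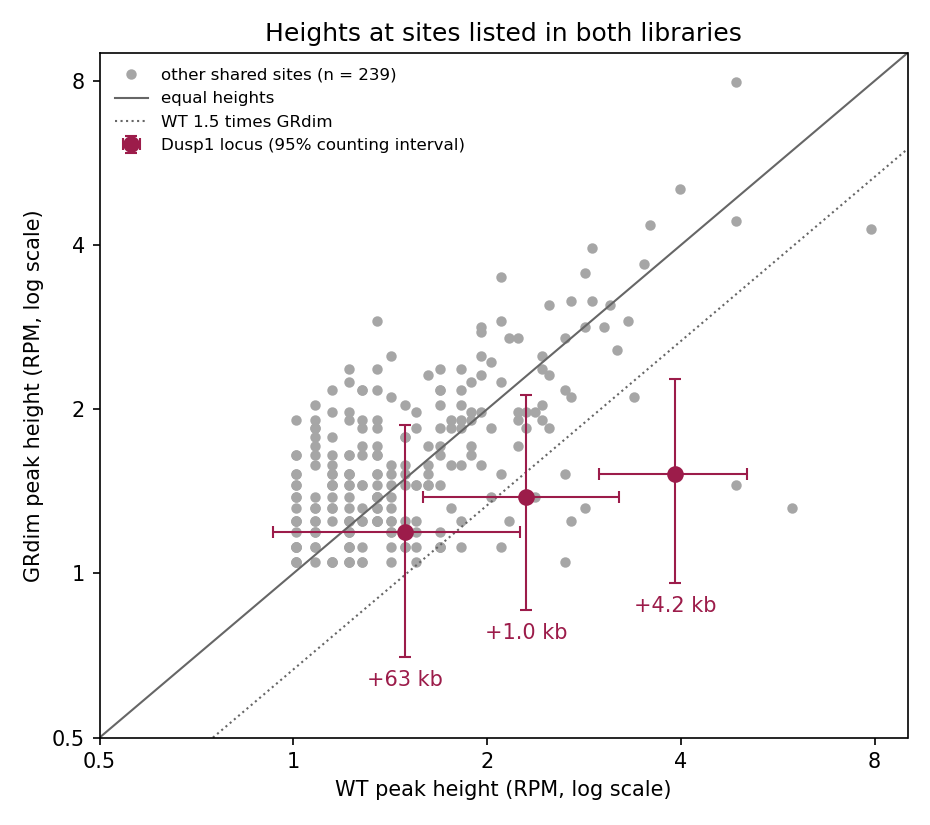
GRdim height against WT height (RPM, both axes log scale) at the 242 sites listed in both libraries, with lines for equal heights and for WT 1.5 times GRdim. Grey points are the 239 other sites and red points the 3 Dusp1 locus sites with 95% exact Poisson counting intervals; the sites at 1.0 and 4.2 kb lie beyond the line of 1.5 and the 63.1 kb site lies between the lines.

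Summed over the locus, WT peaks came to 15.82 RPM (234 reads) and GRdim peaks to 5.67 RPM (86 reads), a ratio of 2.79 (2.17 to 3.62). The same sums over the complete lists had a ratio of 1.35, or 1.25 over autosomes. Without the 26.8 kb peak the ratio at the locus was 1.54 (1.16 to 2.04), and over its 3 shared sites alone it was 1.89 (1.37 to 2.61). A sum over listed peaks counts an unlisted site as 0, so these ratios depend on which sites passed the floor. The locus made up 0.983% of the summed height of the WT list and 0.474% of that of the GRdim list.

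Few stretches held as many listed peaks as the Dusp1 locus. The locus was chosen with its peaks known, so the counts below describe it and are no evidence about it. When the genome was tiled in windows of 130 kb with the Dusp1 stretch as 1 of them, 1327 windows held a peak and 929 of these held a single one. This tiling keeps the Dusp1 peaks in 1 window while its borders can split other clusters, so counts were also taken over loci made by chaining peaks of either library with midpoints up to 50 kb apart. There 7 loci held 5 or more WT peaks, 5 held 4 or more GRdim peaks and 2 held both numbers, the Dusp1 locus included in each count. The most GRdim peaks in a chained locus was 7, so the 4 of the Dusp1 locus were not the maximum.

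The chaining gave 1327 loci in all. All 9 of its peaks fell into 1 locus. By summed WT height minus summed GRdim height it ranked 5, with 10.15 RPM, and 2 among the 1303 autosomal loci. The loci next above it were chr7:71041835-71085540 (10.33 RPM), chrY:1745070-1790715 (18.38 RPM) and chrY:2883597-2901805 (20.08 RPM). Those next below were chrY:1264182-1312903 (9.65 RPM), chr11:68910489-68913007 (8.38 RPM) and chr19:23112794-23131615 (7.09 RPM). All 6 of these had 0 GRdim peaks, whereas the Dusp1 locus had 4. Among the 295 loci with a peak in both libraries the difference was greatest at the Dusp1 locus, and their median difference was -0.04 RPM. By the ratio of summed heights it ranked 13 of the 295: 12 loci (4.07%) had a higher ratio of WT over GRdim, up to 4.90, and each of these had 1 GRdim peak. The median ratio of the 295 was 0.962. The locus was chosen by its heights, so these ranks describe it and are no evidence about it. They also count the GRdim height at 26.8 kb, which is not known, as 0, where WT has 7.10 RPM.

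The loci most like it in their number of shared sites were nearly balanced between the libraries. Besides the Dusp1 locus, 4 loci held 3 or more shared sites. The ratio of summed heights, WT over GRdim, was 1.09 at chr11:117807848-117853392 (6.08 and 5.60 RPM) and 1.04 at chr16:96036325-96119788 (8.17 and 7.84 RPM). It was 0.992 at chr17:18008703-18038875 (5.88 and 5.93 RPM) and 0.960 at chr19:59096025-59146696 (4.05 and 4.22 RPM). The Dusp1 locus, with 2.79, was the highest of these 5, in a comparison made after its own value was known.

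WT-only peaks were then placed relative to shared sites. Of all 790 autosomal WT-only peaks, 51 (6.46%) lay within 50 kb of a shared site, as did 8 of the 67 of 2 RPM or more (11.9%). Of 26 autosomal WT-only peaks of 3 RPM or more, 2 (7.69%) did. These were the 26.8 kb peak, with its nearest shared site 22.7 kb away, and a peak of 3.31 RPM at chr4:144857543-144857742, with a shared site at 6.24 kb. The 26.8 kb peak had all 3 shared sites of the locus within 50 kb, and no other of the 26 had 2 or more. Since the locus was chosen with these peaks known, this is a description and no evidence about it.

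**Figure D4:**
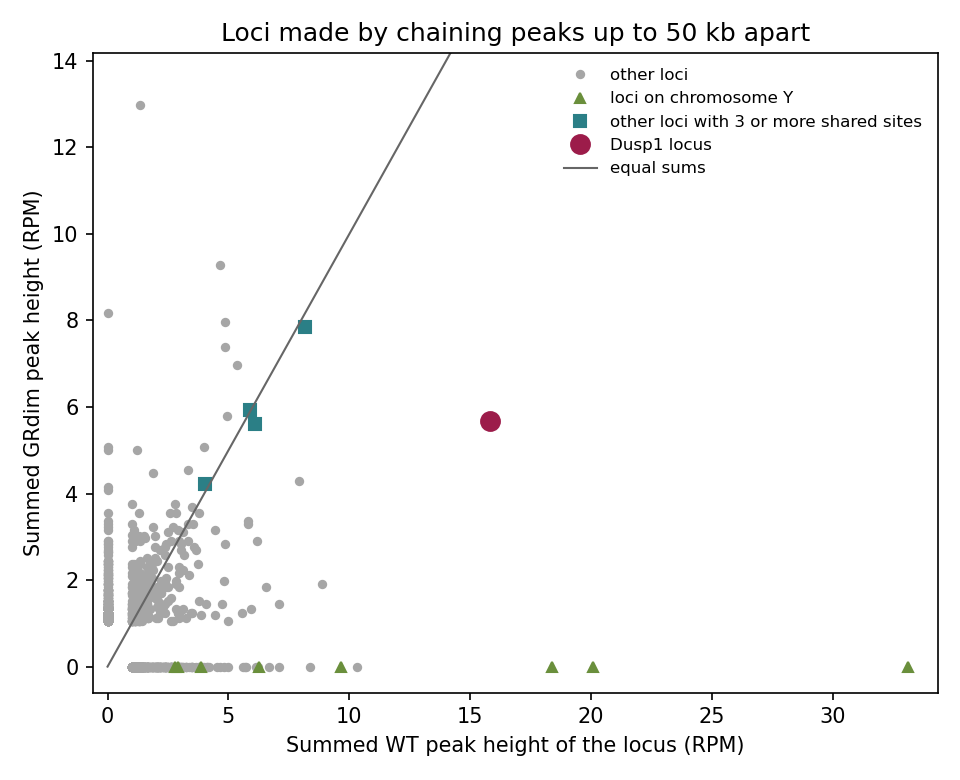
Summed GRdim peak height against summed WT peak height (RPM) of the 1327 loci made by chaining peaks up to 50 kb apart; the line marks equal sums. The Dusp1 locus (red, 15.82 and 5.67 RPM) lies to the right of the line, the 4 other loci with 3 or more shared sites (squares) lie along it, and the loci on chromosome Y (triangles) have no GRdim height.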

How the data were processed

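The authors deposited 1 list of GR peaks for each ChIP library, with heights taken as RPM because the peak names carry the mark 1rpm. Reads were aligned with Bowtie to mm9, per the submitters' processing notes; for the peak caller, its thresholds and the use of the input, the labels and files name nothing (not given in the sources used here). All peaks are 200 bp wide and are printed 1-based.

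Steps from 0.03 to 0.5 RPM were tried as the value of 1 read. A step qualified if its multiples, within 0.1 read, met nearly all heights. In the run of qualifying steps that ended at the largest, the step whose multiples lay closest to the heights was taken. It met 1073 of 1076 heights in WT and 822 of 822 in GRdim. Peaks overlapping by at least 1 base were shared. Step fit and overlap were tested on simulated data. No test was run on the locus. All its peaks are named, and other loci by the 3 ranks above and below. The members, lists and comparisons were chosen with earlier results of these data known. Peak sequences and genes under the peaks were not analysed here, for want of an mm9 reference. The software was scipy 1.17.1 and numpy 2.4.6 under Python 3.11.15, with figures by matplotlib 3.10.9.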

Additional observations from a re-analysis of the deposited data

How the results depend on the processing

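Another setting was tried 25 times: 22 values were classed as close to the one reported and 3 as moved. Several of the 22 could hardly move: edges shift distances by 0.1 kb, fitted reads restate heights, and medians rescale all site ratios alike. Asking for 1.5 RPM in both lists left 1 shared site of 3, since the GRdim heights at 1.0 and 63.1 kb lie below that. The summed height of WT over GRdim moved from 2.79 to 1.54 without the 26.8 kb peak. It moved to 1.89 over the shared sites, a setting chosen after seeing the data. Both leave out WT peaks by construction, and the shared sites also leave out the GRdim peak at 6.3 kb (1.58 RPM). Upstream peaks only gave 2.61. Dividing by the median of shared sites in each library gave ratios of 1.78, 2.76 and 1.34 at 1.0, 4.2 and 63.1 kb. Stricter or looser overlap kept 3 shared sites, a window of double length kept 5 WT and 4 GRdim peaks, within 50 kb of the gene start 4 WT and 3 GRdim peaks were left, without the 63.1 kb site, and the locus ranked 4 with gaps up to 25 or 100 kb; gaps up to 25 kb keep 3 WT and 3 GRdim peaks in it. Distances moved by 0.1 kb when taken from peak edges. No paired analysis was possible because each genotype has 1 library, and no library could be left out. The floor of 1 RPM limits the locus to sites of 15 reads or more in WT and 16 in GRdim.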
